A study of Mus musculus with 6 samples.

Results

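Committed oligodendrocyte precursors are cells that have left the oligodendrocyte progenitor (OPC) state but do not yet make myelin. Their nuclei were picked out of single-nucleus RNA-seq of mouse forebrain by their unique molecular identifiers (UMIs), each of which stands for 1 captured RNA molecule. A nucleus was taken where Gpr17, Bmp4 and Neu4 together had at least 2 UMIs, Bcas1 at least 2, Pdgfra at most 1, the mature genes Mog, Aspa and Opalin none, the neuronal genes Slc17a7, Slc17a6, Gad1 and Gad2 together at most 1, and the proliferation genes Top2a and Mki67 together at most 1. This rule was met by 799 of 75867 nuclei with a mitochondrial share under 10%. The levels of these genes chose the nuclei, so they are a description and support nothing here.

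The study isolated nuclei from the flash-frozen forebrains of 3 wild-type (WT) mice and of 3 Npc1-/- mice, all at postnatal day 16, and sequenced 3′ libraries on the 10x Chromium platform. NPC1 moves cholesterol out of the endolysosomal compartment, and Niemann-Pick C is the storage disorder of patients who lack it. The Npc1-/- mice carried the Npc1 nih allele in every cell and were F1 hybrids of heterozygous BALB/cJ and C57BL6/J parents, the WT mice were littermates, and no animal was treated. The barcodes carried a library number from 1 to 6 but no link from that number to a mouse or a genotype. WT and Npc1-/- nuclei could therefore not be told apart, all values are over both genotypes or per numbered library, and no test was made.

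In this lineage, OPCs carry the PDGF receptor Pdgfra and the proteoglycan NG2 (Cspg4) and divide in response to PDGF. On leaving the cell cycle they pass through a short stage marked by the receptor Gpr17, the secreted ligand Bmp4 and the sialidase Neu4, and then through a newly formed stage marked by the choline phosphodiesterase Enpp6. Oligodendrocytes that go on from there wrap axons and express myelin genes such as Mog and Opalin. Gpr17 is a Gi-coupled receptor that holds back the last steps of differentiation, whereas Tcf7l2, Nkx2-2, Sox10 and Myrf are transcription factors that promote them.

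Promoter sequences are shown for the rule genes Bmp4 and Neu4, for the marker Tns3 and for Enpp6, the gene used below to order the nuclei. They were taken from RefSeq on build GRCm38.p6 and run 5′ to 3′ on the strand of the gene. Capitals mark GGGCGG, the GC box, on either strand. Bmp4 (minus strand, chr14:46390670-46390919), Tns3 (minus strand, chr11:8664536-8664785) and Enpp6 (plus strand, chr8:46986637-46986886) are given over the 250 bases before the start of the gene, and Neu4 (plus strand, chr1:94020243-94020450) over 208 because the other 42 bases of its window lay in an annotated exon.
Bmp4: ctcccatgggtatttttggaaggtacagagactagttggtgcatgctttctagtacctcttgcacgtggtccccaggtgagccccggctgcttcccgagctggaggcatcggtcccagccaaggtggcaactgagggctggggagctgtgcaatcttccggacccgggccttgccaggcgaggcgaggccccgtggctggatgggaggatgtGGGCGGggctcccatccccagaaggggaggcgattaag
Neu4: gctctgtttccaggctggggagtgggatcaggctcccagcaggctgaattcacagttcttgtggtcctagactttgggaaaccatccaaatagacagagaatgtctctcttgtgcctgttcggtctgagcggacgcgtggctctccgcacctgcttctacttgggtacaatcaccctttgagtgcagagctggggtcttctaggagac
Tns3: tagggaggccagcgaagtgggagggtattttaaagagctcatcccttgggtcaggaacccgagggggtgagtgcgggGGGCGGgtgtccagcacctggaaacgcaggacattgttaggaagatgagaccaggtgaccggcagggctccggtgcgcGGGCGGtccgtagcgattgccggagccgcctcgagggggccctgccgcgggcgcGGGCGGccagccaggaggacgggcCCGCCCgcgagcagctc
Enpp6: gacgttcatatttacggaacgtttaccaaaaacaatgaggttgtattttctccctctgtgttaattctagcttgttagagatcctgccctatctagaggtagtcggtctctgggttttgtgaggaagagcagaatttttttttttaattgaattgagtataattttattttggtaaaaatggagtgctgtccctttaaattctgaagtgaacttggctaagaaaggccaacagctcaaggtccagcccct
The GC content was 63.2% for Bmp4, 54.3% for Neu4, 69.6% for Tns3 and 38.4% for Enpp6. The GC box began 38 bases before the start of Bmp4 and 173, 95, 41 and 17 bases before the start of Tns3, and was found in 32.7% of 32851 RefSeq windows of 250 upstream bases. It had no match in the Neu4 and Enpp6 sequences. The E-box CAGCTG (13.0% of windows), the Sox motif ACAAAG (16.5%) and the TATA motif TATAAA (12.4%), searched on both strands, had no match in any of the 4 sequences, which says only that these letters are not in these windows.

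The 6 libraries held 8217 to 16118 barcodes and 51343653 to 107583300 UMIs, with a median depth of 4471 to 5439 UMIs per nucleus. The committed precursors had a median depth of 4088 UMIs and 3814783 UMIs in all. Pairs of libraries shared 20 to 75 barcode sequences, and 0 of these were committed precursors in both. All intervals are 95% intervals and cover counting error only.

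Committed precursors made up 1.05% of all nuclei (exact binomial interval 0.982% to 1.13%), with 146, 169, 152, 110, 137 and 85 nuclei in libraries 1 to 6. Their share per library was lowest in library 4 (0.902%, 0.742% to 1.09%) and highest in library 5 (1.27%, 1.07% to 1.5%), with a median of 1.04%. The highest share was 1.41 times the lowest, and the intervals of these libraries overlapped.

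The neighbouring stages were defined by UMIs too, each with the same limits on neuronal and proliferation genes. OPC-like nuclei (1079) had at least 2 UMIs of Pdgfra, at most 1 of Bcas1, at most 1 of Gpr17, Bmp4 and Neu4 together and none of the mature genes. Newly formed oligodendrocyte-like nuclei (441) had at least 2 UMIs each of Enpp6 and Bcas1, at most 1 of Gpr17, Bmp4 and Neu4 together, at most 1 of Pdgfra and at most 1 of the mature genes together. Mature oligodendrocyte-like nuclei (1733) had at least 2 UMIs of the mature genes together and at most 1 each of Enpp6, of Pdgfra and of the Gpr17, Bmp4 and Neu4 sum.

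OPC-like nuclei ranged from 1.27% to 1.61% of a library. That class includes 230 nuclei with fibroblast genes, described below, which also count in the ratios to OPC-like nuclei. Newly formed nuclei ranged from 0.243% to 1.00%, the highest library at 4.11 times the lowest, and mature nuclei from 0.919% to 3.51%, at 3.82 times. There were 64.9 to 81.1 committed precursors per 100 OPC-like nuclei, 23.5 to 78.8 newly formed nuclei per 100 precursors and 89.5 to 332 mature nuclei per 100 precursors. The committed precursors thus spanned a narrower range over the 6 libraries than the stages that follow them.

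**Figure D1:**
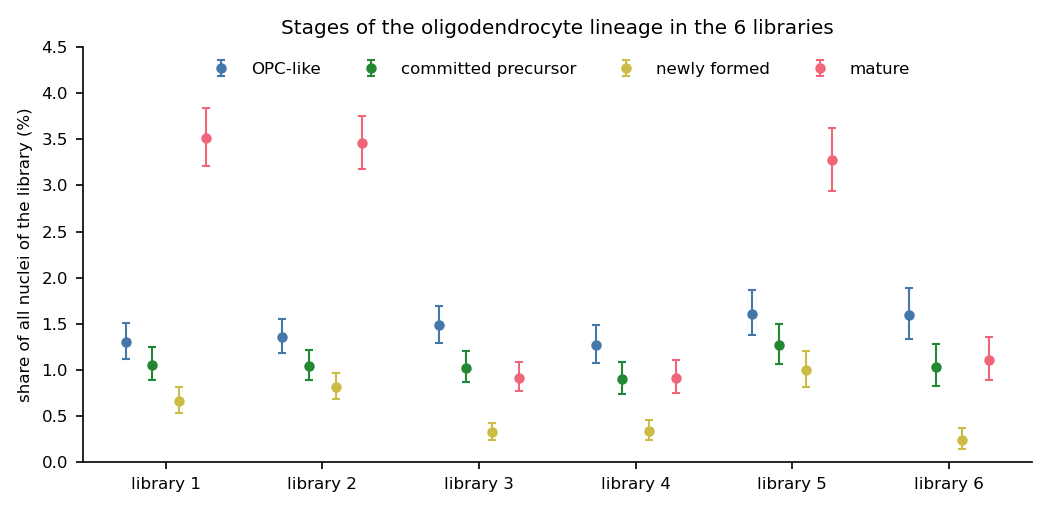
Share of the nuclei of each library (y axis, percent) taken by OPC-like, committed precursor, newly formed and mature oligodendrocyte-like nuclei in libraries 1 to 6 (x axis), with exact 95% binomial intervals as bars. Committed precursors sit between 0.902% and 1.27% in every library, while mature nuclei run from 0.919% to 3.51%.

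A rule on UMIs depends on depth, so each nucleus was also thinned to 2000 UMIs, which left out 8229 shallower nuclei. The rule was then met by 441 of 67638 nuclei, 0.652% (0.593% to 0.716%). Per library the thinned share was 0.820%, 0.711%, 0.477%, 0.468%, 0.836% and 0.715% in libraries 1 to 6. Libraries 3 and 4, with the highest median depths, had the lowest thinned shares, and the narrow range of the unthinned share was not kept.

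The edges of the rule were well populated. Of the 799 nuclei, 334 held exactly 2 UMIs of Gpr17, Bmp4 and Neu4, and 569 nuclei with 1 such UMI met every other condition and were left out. Any of these 569 with at least 2 UMIs of Enpp6 counted as newly formed, so 1 UMI can separate the 2 stages. How many did so was not counted. Of the members, 296 had 3 or more UMIs of Enpp6. These met every condition of the newly formed class except its limit on Gpr17, Bmp4 and Neu4. For Bcas1, 55 members sat at 2 UMIs and 81 nuclei were left out at 1. Pdgfra was at 1 UMI in 83 members and at 2 in 39 nuclei just outside. A further 137 nuclei were left out for 1 UMI of Mog, Aspa or Opalin.

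Neu4 was detected in 78.6% of the precursors, Bmp4 in 60.7% and Gpr17 in 52.4%. All 3 were seen together in 18.0% of nuclei and only 1 of them in 26.3%, shares that the rule limits, because the 334 nuclei with exactly 2 such UMIs could not show all 3. Of genes outside the rule, Fyn was detected in 95.2%, Tns3 in 88.0%, St18 in 71.7%, Enpp6 in 67.1%, Sox10 in 62.5% and Nkx2-2 in 31.0% of precursors, and the lineage factors Olig1 and Olig2 in 120 and 107 of the 799. These shares have no background share beside them and say only that a UMI was found.

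Markers of other cell types were counted in the same nuclei. At least 2 UMIs of 7 astrocyte genes were present in 75.7% of the precursors, against 85.8% of OPC-like nuclei and 95.0% of 1461 excitatory neuron-like nuclei. The latter had a median depth of 14941 UMIs, and not all 7 genes need be absent from neurons. Of these 7 genes, Aqp4 and Gja1 together reached 2 UMIs in 8.76% of precursors, a share with no other class beside it. In precursors and OPC-like nuclei, 2 UMIs were reached by microglial markers in 7.38% and 8.43%, by endothelial markers in 21.3% and 22.6%, by mural markers in 8.39% and 11.4% and by neuroblast markers in 6.01% and 6.95%. Fibroblast markers stood apart, at 2.75% of precursors but 13.7% of OPC-like nuclei. Leaving out every nucleus with 2 or more UMIs of any of these lists kept 139 precursors, 109 OPC-like and 80 newly formed nuclei, and there 204 genes were higher and 76 lower than in OPC-like nuclei.

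Pdgfra is also a fibroblast gene. With 3 or more UMIs of 10 fibroblast genes, 230 of 1079 OPC-like nuclei (21.3%) stood out, against 20 precursors (2.50%) and 6 newly formed nuclei (1.36%). The counts over all genes, and the list counts and named calls that changed, are therefore also given against the 849 that were left without them, a step added after the data had been seen.

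Levels are CPM, the UMIs of a gene scaled to 1000000 UMIs summed over the nuclei of a class, and are compared between classes and never between genes. A range of CPM runs from the lowest to the highest of the 6 libraries, and 3 values are the lowest, median and highest library. A gene is called higher or lower where the summed level differed at least 2-fold, the exact interval of the ratio excluded 1 and all 6 libraries lay on the same side, among genes with at least 50 UMIs over both classes and outside the 15 genes of the class rules.

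Against OPC-like nuclei, 377 of 12055 genes were higher in committed precursors (3.13%) and 597 were lower (4.95%), with a median log2 ratio of -0.10 over all genes. Without the fibroblast-gene nuclei, 389 of 11385 were higher (3.42%) and 302 lower (2.65%), and 324 and 205 of these had also been called before. Against newly formed nuclei, 179 of 10726 genes were higher (1.67%) and 210 lower (1.96%), with a median of 0.14. With TMM scaling, which moved that median close to 0, the counts against newly formed nuclei were 111 and 264. Each call needs all 6 libraries, which held 92, 132, 48, 41, 108 and 20 newly formed nuclei. Library 4 set part of these counts, and without it 273 genes were higher than in newly formed nuclei. In library 4 the newly formed nuclei had 207 CPM of the scaffold gene Cnksr3, against 861 to 1907 CPM in the other libraries. Precursors were spread over the 6 libraries differently, at 146, 169, 152, 110, 137 and 85, so summed folds also move with the library mix. The shares over all genes in this paragraph are the background for the list counts below.

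Gpr17 had 126, 170.1 and 196 CPM in precursors, against 10.1 to 22.9 CPM in OPC-like nuclei and 0 to 30.4 CPM in newly formed nuclei. Bmp4 had 189, 208 and 319 CPM against 1.27 to 9.66 and 26.6 to 84.8 CPM. Neu4 had 244, 327 and 385 CPM against 31.7 to 60.4 and 0 to 79.5 CPM. These separations follow from the rule. Bcas1 (chr2:170346991-170427845, minus strand), also a rule gene, had 2362, 2956 and 3665 CPM, and its range overlapped the 2232 to 3364 CPM of newly formed nuclei, which were chosen on it too.

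Tns3, a focal adhesion protein that no rule used, had 956, 1150.0 and 1434 CPM in precursors and 110.2 to 210.2 CPM in OPC-like nuclei, without overlap. Its summed level was 7.72-fold higher than in OPC-like nuclei (log2 ratio 2.95, 2.83 to 3.07). In newly formed nuclei it had 1397 to 2071 CPM, which overlapped the precursors. The library ranges of this marker outside the rule thus lay apart from those of the OPC-like stage. They overlapped those of the newly formed stage between 1397 and 1434 CPM only.

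Fyn (chr10:39368855-39565381, plus strand), a Src family kinase of process outgrowth, had 2209, 2666 and 3149 CPM in precursors and 219 to 278 CPM in OPC-like nuclei, 10.6-fold higher and without overlap. Its range in newly formed nuclei, 1917 to 2987 CPM, overlapped that of the precursors, and mature nuclei had 212 CPM. Enpp6 went from 0 to 11.8 CPM in OPC-like nuclei to 349, 531 and 771 CPM in precursors. It had 698 to 1084 CPM in newly formed nuclei, where it was part of the rule.

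The 10 highest calls against OPC-like nuclei included early differentiation genes. St18, a zinc finger transcription factor of the Myt1 family, had 940.2, 1256 and 1839 CPM against 2.42 to 23.6 CPM, a 70.4-fold difference. Rinl, a Ras and Rab interactor-like protein, had 36.4, 60.9 and 80.7 CPM against 0 to 3.82 CPM. The kinesin Kif19a had 40.3, 73.6 and 109.8 CPM against 0 to 7.25 CPM. The kinase Srpk3 had 45.5, 68.2 and 88.1 CPM against 1.91 to 6.28 CPM, and none of these 4 ranges overlapped. Bcas1os2, antisense to Bcas1, was also among them, at 617 against 30.8 CPM, but reads of an antisense pair cannot be told apart unless counting used the strand, which the sources do not state. The 5 others were predicted genes.

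The 10 lowest calls against OPC-like nuclei were Col4a6, Lamc3, Col13a1, Slc6a13, Enpp1, Bmp6, Slc6a20a, Scara5, Aox3 and Aldh1a2, which include collagen, laminin and transporter genes known from meningeal fibroblasts. The level of Bmp6 in OPC-like nuclei went from 285 to 5.28 CPM when the fibroblast-gene nuclei, which Bmp6 helped to choose, were left out, and its log2 ratio from -4.66 to 1.09. Col4a6, which was not used for that choice, went from a log2 ratio of -4.92 to 2.34. It had only 12 UMIs in precursors, too few to read the value of 2.34 as an excess there. The values of Bmp6 and Col4a6 move with the 230 nuclei left out.

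Some genes were lower with and without those nuclei. Etv4 and Etv5, ETS factors induced by receptor tyrosine kinases, had 5.26 to 20.2 and 23.3 to 42.9 CPM in precursors against 48.7 to 91.7 and 67.0 to 109 CPM in OPC-like nuclei. Without the fibroblast-gene nuclei Etv4 was 6.58-fold and Etv5 2.71-fold lower. Spry1, a feedback inhibitor of the same pathway, had 0 to 7.09 CPM against 10.1 to 25.7 CPM. Pstpip2, an F-BAR adaptor, had 12.3 to 42.3 CPM against 101 to 195 CPM.

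Of the 18 progenitor identity genes some lay between the stages. Their median log2 ratio was -0.71 against OPC-like nuclei, with 1 higher and 4 lower, and -0.88 with 1 higher and 9 lower without the fibroblast-gene nuclei. Against newly formed nuclei the median was 1.13, and 10 were higher and none lower. Cspg4 had 31.8, 45.8 and 57.9 CPM in precursors, 77.3 to 151 CPM in OPC-like and 11.3 to 37.1 CPM in newly formed nuclei, and was called in both comparisons. Ptprz1, a receptor phosphatase, had 508, 700.1 and 788 CPM, between 892 to 1925 and 266 to 467 CPM, with no overlap on either side. It was called lower than in OPC-like nuclei only without the fibroblast-gene nuclei, where it was 2.34-fold lower, and it was 2.15-fold higher than in newly formed nuclei.

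Other progenitor genes did not follow that order. Tnr, the matrix protein tenascin-R, was the member called higher than in OPC-like nuclei, with 5463, 6177 and 6824 CPM against 1196 to 2036 CPM and a log2 ratio of 1.97 (1.93 to 2.01). Its level in newly formed nuclei, 4311 to 7251 CPM, overlapped that of the precursors. Sox6, a repressor of myelin genes, had 1723, 2135 and 2525 CPM against 783 to 1599 CPM in OPC-like nuclei, and its log2 ratio of 0.98 did not reach 2-fold. Vcan (versican) had 402, 518 and 737 CPM against 205 to 556 CPM, with overlap.

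Genes of the onset of differentiation had the highest median of the 19 lists against OPC-like nuclei. The lists were chosen with earlier results of these data known, and both classes were chosen on Bcas1 and Pdgfra. The rank is therefore a description only. Of 16 tested, 14 were higher and none lower, with a median log2 ratio of 2.64 (2.68 without the fibroblast-gene nuclei). Against newly formed nuclei 6 of 17 were lower and none higher, with a median of -0.81. Nfasc, a cell adhesion molecule, had 1477, 1799 and 2081 CPM, 10.5-fold above OPC-like and 2.63-fold below newly formed nuclei. Cnksr3 had 61.4, 170.3 and 358 CPM, 5.44-fold above and 7.87-fold below. Its summed folds also move with the library mix, because its level in precursors varied over the libraries. Sirt2, a tubulin deacetylase of oligodendrocytes, had 656, 689.7 and 790.1 CPM, 6.75-fold above OPC-like nuclei, and was not called against newly formed nuclei.

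Rras2, a Ras family GTPase of the same list, had 32.5, 42.1 and 89.9 CPM in precursors, against 52.6 CPM summed over OPC-like nuclei, whose library range overlapped, and was 9.86-fold lower than in newly formed nuclei. Cemip2, a hyaluronan-degrading enzyme, had 32.2 CPM in precursors and 816 CPM in newly formed nuclei but was lower in 5 of 6 libraries only, as the newly formed nuclei of library 4 held none.

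Of 14 myelin genes tested, 7 were higher than in OPC-like nuclei and 1, Apod, was lower, with a median log2 ratio of 1.02, and without the fibroblast-gene nuclei 7 of 13 were higher and none lower, with a median of 1.33. Apod had 211 CPM in all OPC-like nuclei and 38.8 CPM without the fibroblast-gene nuclei, where it was not called. Against newly formed nuclei 5 of 13 were lower, with a median of -0.96, a direction that is not independent of the rules, because precursors had to lack Mog, Aspa and Opalin. Mag, a periaxonal adhesion protein, had 29.1, 60.0 and 114 CPM in precursors, 0 to 49.3 CPM in OPC-like and 106 to 511 CPM in newly formed nuclei. Fa2h, which hydroxylates fatty acids of myelin lipids, had 156, 201 and 246 CPM and was 6.79-fold above OPC-like nuclei. Microglia-like nuclei (1332, median depth 2919 UMIs), which should lack these genes, had 978 CPM of Mbp and 85.1 CPM of Mag, against 1616 and 68.7 CPM in precursors, and the part of free RNA in these levels was not tested.

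**Figure D2:**
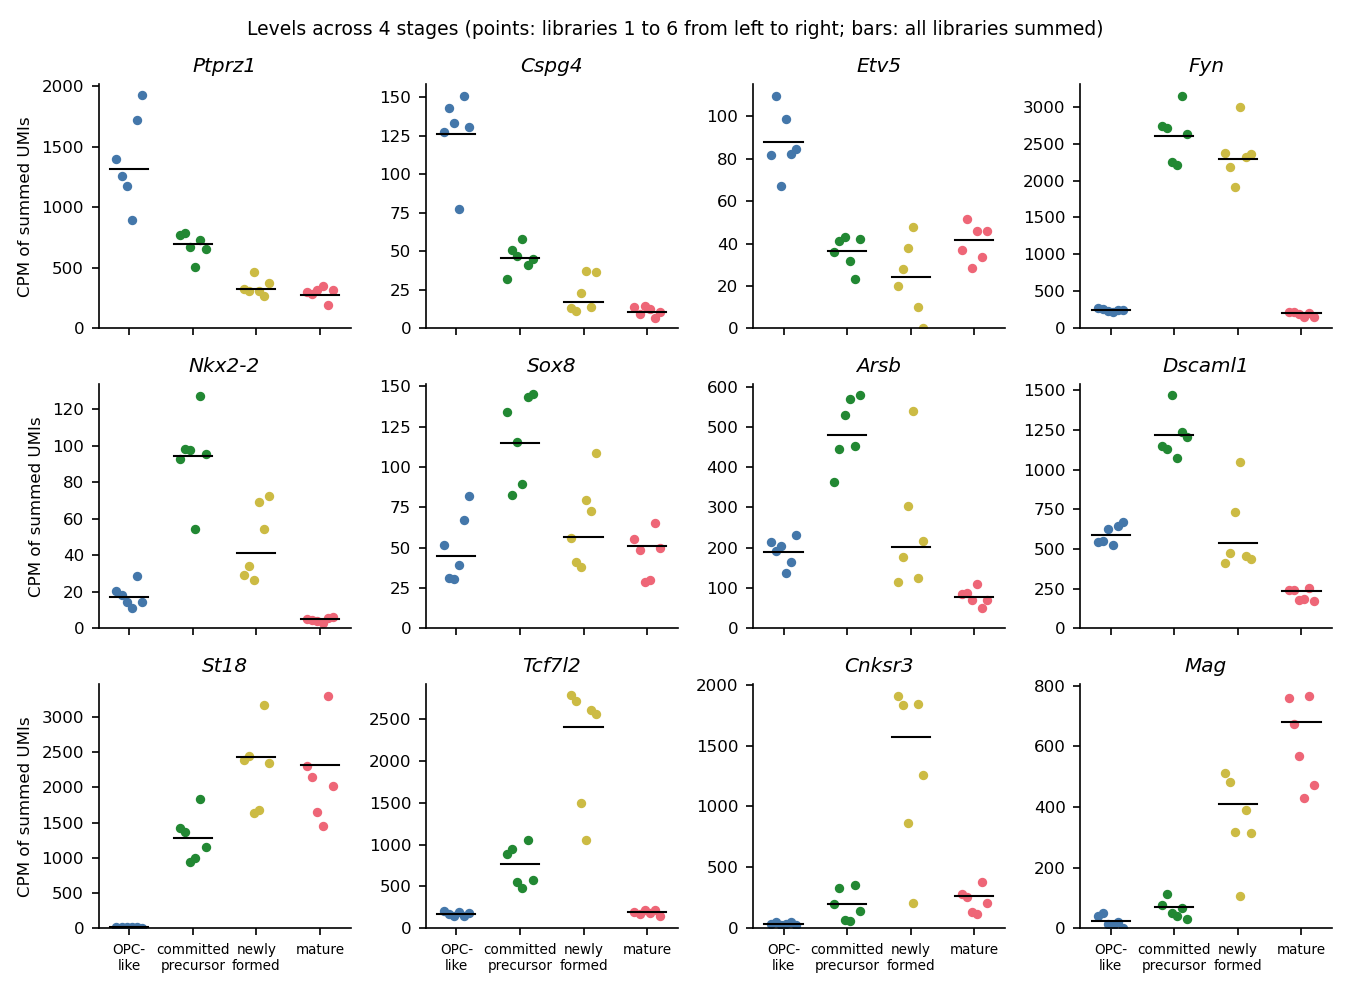
Level of 12 genes (y axis of each panel, CPM) over OPC-like, committed precursor, newly formed and mature oligodendrocyte-like nuclei (x axis). Points are libraries 1 to 6 from left to right and bars are all libraries summed. Cspg4 steps down over the first 3 stages from 126 to 45.6 and 16.9 CPM, and Fyn is high at 2601 and 2295 CPM in the middle stages.

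Of 28 transcription factors, 8 were higher and 5 lower than in OPC-like nuclei, with a median log2 ratio of -0.20 (7 higher and 6 lower of 27 and -0.11 without the fibroblast-gene nuclei), and of 27 tested against newly formed nuclei 2 were higher and 2 lower. Myrf, a master regulator of myelin genes, had 54.5, 69.0 and 87.8 CPM in precursors and 0 to 7.64 CPM in OPC-like nuclei, a 17.8-fold difference. Tcf7l2 had 479, 733 and 1059 CPM, 4.43-fold above OPC-like and 3.14-fold below newly formed nuclei. Nkx2-2 (chr2:147177546-147194243, minus strand) had 54.4, 96.3 and 127 CPM against 11.4 to 28.7 CPM in OPC-like nuclei, without overlap. It was 2.29-fold above newly formed nuclei over all libraries but in 5 of 6 of them, library 4 being the exception, and mature nuclei had 4.97 CPM.

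The factors called lower than in OPC-like nuclei were Hes1, Hes5, Etv1, Etv4 and Etv5. Hes1 and Hes5, Notch effectors that oppose differentiation, had 5.29 to 15.4 and 5.91 to 19.5 CPM in precursors against 21.0 to 34.3 and 20.3 to 50.7 CPM. Myt1, a zinc finger factor of progenitors, had 73.6, 103 and 139 CPM and was 2.67-fold higher than in newly formed nuclei. Zfp536, a zinc finger repressor, had 242, 294 and 314 CPM and was 2.50-fold lower than in newly formed nuclei. Olig1, Olig2 and Sox10, which mark the whole lineage, were called in neither comparison, with log2 ratios to OPC-like nuclei of -0.34, 0.02 and 0.96.

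In 15 of 10674 genes (0.141%) the level was higher in committed precursors than in both neighbouring stages. They were Gm15222, 4933431K23Rik, Stox1, Gm3417, Fsd1l, Glis1, Arsb, E330020D12Rik, A930009A15Rik, E2f8, Kif21b, Tspan32os, Dscaml1, Sox8 and Mboat1. Mature nuclei were no part of this call, and Mboat1 had 27.6 CPM there against 18.35 CPM in precursors. All the others were called higher than in mature nuclei too. Some of the 15 had few UMIs. In precursors, OPC-like and newly formed nuclei, Gm15222 had 47, 9 and 7, 4933431K23Rik 61, 20 and 9, and E2f8 79, 10 and 20. A gene this low in the neighbours could pass the minimum of UMIs only through its precursor UMIs. Without the fibroblast-gene nuclei 10 of 10622 genes (0.0941%) were higher than in both neighbouring stages, among them Fsd1l, Glis1, E2f8, Stox1, Arsb and Sox8. Without library 4 there were 33, and 13 of the 15 were among them. With fewer nuclei, 7 of the 15 were among 14 such genes with stricter members (at least 3 UMIs of Gpr17, Bmp4 and Neu4 and of Bcas1, no Pdgfra), and 2 of them were among 11 without nuclei with markers of other cell types. In the last step the log2 ratio of Gm15222 to OPC-like nuclei went from 2.55 to -0.095, and the part of fewer UMIs in these losses was not tested. Egflam and Ezr, named after their values were seen, were the 2 genes lower than in both neighbours (0.0187%). Without the fibroblast-gene nuclei these were 4933400F21Rik and Bach2 instead (0.0188%).

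Sox8 (chr17:25565892-25570686, minus strand), a SoxE factor related to Sox10, had 82.8, 125 and 145 CPM in precursors, 30.4 to 82.1 CPM in OPC-like nuclei and 38.0 to 109 CPM in newly formed nuclei. Its log2 ratios were 1.36 (1.11 to 1.61) and 1.02 (0.73 to 1.32). Arsb (chr13:93771630-93943016, plus strand), the lysosomal arylsulfatase B that acts on chondroitin and dermatan sulfate, had 364, 492 and 579 CPM against 138 to 232 and 114 to 540.3 CPM, and the precursors were higher within every library. The newly formed nuclei of library 4 had 540.3 CPM of Arsb, those of the other libraries 114 to 304 CPM. Arsb was not particular to the lineage, with 563 CPM in microglia-like nuclei.

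Dscaml1, an immunoglobulin superfamily adhesion molecule, had 1077, 1176 and 1473 CPM in precursors, 523 to 669 CPM in OPC-like and 410.2 to 1049 CPM in newly formed nuclei. Without the fibroblast-gene nuclei its excess over OPC-like nuclei was 1.67-fold and was not called. E2f8, an atypical E2F repressor of cell cycle genes, had 10.4, 22.2 and 44.9 CPM against 0 to 3.82 and 3.79 to 24.2 CPM. The zinc finger gene Glis1 had 49.7, 62.1 and 83.1 CPM against 13.9 to 32.5 and 15.5 to 53.0 CPM. Fsd1l had 170.1, 226 and 332 CPM against 55.7 to 91.8 and 80.5 to 206 CPM. In these 4 genes each library's precursors were above both of its neighbouring stages, which the call requires.

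Against newly formed nuclei, the highest named calls beside those genes were Gucy2f, Accs, Pde11a, C1ql1, Cacng4, Swap70 and Car8. C1ql1, a secreted C1q family protein, had 28.7, 32.0 and 39.7 CPM in precursors, 26.6 to 69.1 CPM in OPC-like and 0 to 15.9 CPM in newly formed nuclei. Car8, a carbonic anhydrase-related protein, had 68.7, 79.6 and 85.9 CPM, which overlapped 51.9 to 99.0 CPM in OPC-like nuclei. Its level in newly formed nuclei was 15.7 to 42.4 CPM. Gucy2f, a guanylate cyclase, was spread widely over the libraries, from 1.79 to 60.8 CPM. Its summed ratio, and so its place among these calls, also moves with the libraries the nuclei came from, since libraries 1, 2 and 5, with 92, 132 and 108 of the 441 newly formed nuclei, had 5.78, 7.09 and 1.79 CPM of Gucy2f in precursors.

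The lowest named calls against newly formed nuclei were Cldn14, Egflam, Rnf220, Kcnj12, Atp10b, Tmem63a and Rras2. This rank rests on summed ratios too and also moves with the libraries the nuclei came from. Cldn14, a claudin, had 0, 3.52 and 28.4 CPM in precursors and 5.30 to 264 CPM in newly formed nuclei, with 5.30 CPM in library 4. Rnf220, a ubiquitin ligase, had 50.2, 62.1 and 141 CPM against 159 to 1154 CPM and was 10.6-fold lower. The potassium channel gene Kcnj12 had 0 to 11.8 CPM against 21.2 to 72.7 CPM.

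Of 30 genes of process outgrowth and the cytoskeleton, 10 were higher than in OPC-like nuclei and 1 was lower, with a median log2 ratio of 0.25 (9 higher, 1 lower and 0.24 without the fibroblast-gene nuclei). Besides Fyn these included Arhgap35 (p190RhoGAP), a Fyn substrate, with 533, 703 and 819 CPM and 2.78-fold higher, and the microtubule genes Mapt and Tubb4a, 3.38-fold and 3.89-fold higher. Plxnb3, a semaphorin receptor, had 110.4, 158 and 199 CPM against 7.60 to 20.4 CPM, 11.5-fold higher. The semaphorins Sema4d and Sema5a were 5.71-fold and 2.62-fold higher than in OPC-like nuclei and 4.26-fold and 2.21-fold lower than in newly formed nuclei. The adhesion molecule Ncam1 had 1899, 2003 and 2186 CPM against 625 to 717 CPM in OPC-like and 937 to 1812 CPM in newly formed nuclei. Tppp, a tubulin polymerization factor of oligodendrocytes, and the adhesion gene Cntn1 were lower than in newly formed nuclei, at 33.8 against 114 CPM and 523 against 1678 CPM.

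In the BMP pathway 2 of 19 members were lower than in OPC-like nuclei and none higher, with a median of -0.25. These were Bmp6 and the ligand Bmp7, the latter at 5.29 to 9.46 CPM against 30.4 to 56.5 CPM. Without the fibroblast-gene nuclei, Bmp7 was lower and Smad7 higher, and Bmp6 is not read there because it helped to choose the nuclei left out. The receptor Bmpr1a had 91.2, 127 and 82.8 CPM in precursors, OPC-like and newly formed nuclei and was called in neither comparison, nor were the target genes Id1 to Id4. The inhibitor Smad7 had 40.3, 77.4 and 89.6 CPM in precursors and 84.8 to 441 CPM in newly formed nuclei, where its level was 4.11 times as high.

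In the Wnt pathway 1 of 19 was higher and 4 lower than in OPC-like nuclei, and 2 of 17 higher and 1 lower without the fibroblast-gene nuclei, the median moving from -0.39 to 0.07. The nuclear effectors Tcf7l2 and, in the latter comparison, Tcf7l1 (80.7, 165 and 208 CPM) were the higher ones, and both were lower than in newly formed nuclei. Lef1 had 28.0 CPM in precursors, and its OPC-like level went from 77.5 to 26.4 CPM when the fibroblast-gene nuclei were left out. The inhibitor Nkd1 and the R-spondin receptor Lgr5 were 3.31-fold and 2.50-fold higher than in newly formed nuclei.

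In the Notch pathway 5 of 15 were lower than in OPC-like nuclei, with a median of -0.72, and 2 of 13, Hes1 and Hes5, without the fibroblast-gene nuclei, with a median of -0.21. Notch2, Notch3 and Jag1 were not called in that step, and 0 of 13 were called against newly formed nuclei. Of 15 growth factor receptors, Kit (2.89 to 10.8 CPM against 29.0 to 33.0 CPM) and Fgfr1 were lower than in OPC-like nuclei, and Kit was lower without the fibroblast-gene nuclei. Fgfr2 had 265, 335 and 359 CPM and was 2.67-fold lower than in newly formed nuclei. Among 24 genes of Gi and cAMP signalling, the route through which Gpr17 acts, the phosphodiesterase Pde7b was called, with 151, 162 and 188 CPM against 434 to 589 CPM in OPC-like nuclei. The adenylyl cyclase Adcy8 had 64.2 CPM in precursors and 114 CPM in OPC-like nuclei and was not called.

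Of 21 cholesterol synthesis genes, none was called against OPC-like nuclei, the median log2 ratio was 0.06, and the list summed to 567 CPM in precursors and 546 CPM in OPC-like nuclei. In newly formed nuclei it summed to 943 CPM, with 556 to 1057 CPM over the libraries, which overlapped the 478 to 617 CPM of precursors, and the enzymes Mvd and Cyp51 were lower in precursors, at 11.8 against 26.1 CPM and 33.0 against 70.5 CPM. Over the 21 genes the ratio to newly formed nuclei was above 1 for 0, with a median log2 of -0.75 (-0.87 to -0.09 over the libraries) beside 0.14 over all genes. Mvk (mevalonate kinase), which acts early in the pathway, had a log2 ratio to OPC-like nuclei of 0.81 and was not called. Of 23 genes of cholesterol handling, none was called against OPC-like nuclei, and the exporter Abcg1 was lower without the fibroblast-gene nuclei. The lipoprotein receptor Lrp1 had 121 CPM against 176 CPM in OPC-like nuclei and was not called. Npc1 itself had 44.0, 50.5 and 44.8 CPM in precursors, OPC-like and newly formed nuclei, over both genotypes.

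Among writers and erasers of H3K27 methylation, none of 14 was called against OPC-like nuclei (median 0.06) and none of 13 against newly formed nuclei (median 0.05, and -0.09 with TMM scaling). Over all genes 3.13% were higher and 4.95% lower than in OPC-like nuclei, and 1.67% and 1.96% than in newly formed nuclei. At such shares a list this short can hold no call. The methyltransferase Ezh2 had 48.1, 66.4 and 111 CPM in precursors, 53.0 CPM in OPC-like nuclei and 96.5 CPM in newly formed nuclei. The demethylases Kdm6a and Kdm6b had 79.2 to 133 and 57.9 to 100.4 CPM in precursors. Among 20 other chromatin genes the remodeller Chd3 was called, with 398, 516 and 611 CPM and 3.90-fold above OPC-like nuclei. Chd7, a remodeller that works with Sox10, had 288, 236 and 311 CPM in precursors, OPC-like and newly formed nuclei and was not called. Lhfpl4, Cpeb1 and Kcna6, whose promoters the study examined, were called in no comparison, at 30.9, 42.5 and 23.3 CPM in precursors.

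Glutamate receptors and channels, which give OPCs synaptic currents, had a median log2 ratio of -0.32 against OPC-like nuclei (1 higher and 2 lower of 29), -0.42 without the fibroblast-gene nuclei (0 higher and 4 lower) and 0.47 against newly formed nuclei (3 higher of 28). The kainate receptor Grik1 was 2.71-fold and the potassium channel Kcnd2 2.04-fold lower than in OPC-like nuclei. Cacng4, an AMPA receptor auxiliary subunit, had 172, 257 and 341 CPM against 36.3 to 175 CPM in newly formed nuclei, and Cacng8 and the NMDA receptor subunit Grin3a were also higher. The neuronal RNA list had medians of -0.23 and 0.34 with 1 call among 16, Map1b, 2.84-fold above OPC-like nuclei. The synaptic gene Snap25 had 392 CPM in precursors, 545 CPM in OPC-like and 336 CPM in newly formed nuclei. The part of free neuronal RNA in these values was not tested.

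Of 16 genes of cell death control, 2 were higher and 2 lower than in OPC-like nuclei, with a median of -0.05, and without the fibroblast-gene nuclei 2 of 15 were higher and none lower, with a median of 0.13. Tfeb, a transcription factor of lysosomal genes, had 50.2, 82.2 and 109 CPM, 4.06-fold above OPC-like nuclei. Its regulator Flcn had 15.9 to 42.3 CPM and was 2.02-fold higher, a call lost without the fibroblast-gene nuclei. The survival gene Bcl2 had 28.7, 39.3 and 80.7 CPM, 2.30-fold below OPC-like and 2.19-fold above newly formed nuclei, the former not called without the fibroblast-gene nuclei. Of 14 cell cycle genes, Ccnd1, Ccnd3 and Cdk6 were lower than in OPC-like nuclei, and Ccnd1 and Cdk6 also without the fibroblast-gene nuclei. Cdk6, a kinase of the G1 phase, had 5.38, 12.3 and 29.1 CPM in precursors and 36.2 to 65.9 CPM in OPC-like nuclei.

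**Figure D3:**
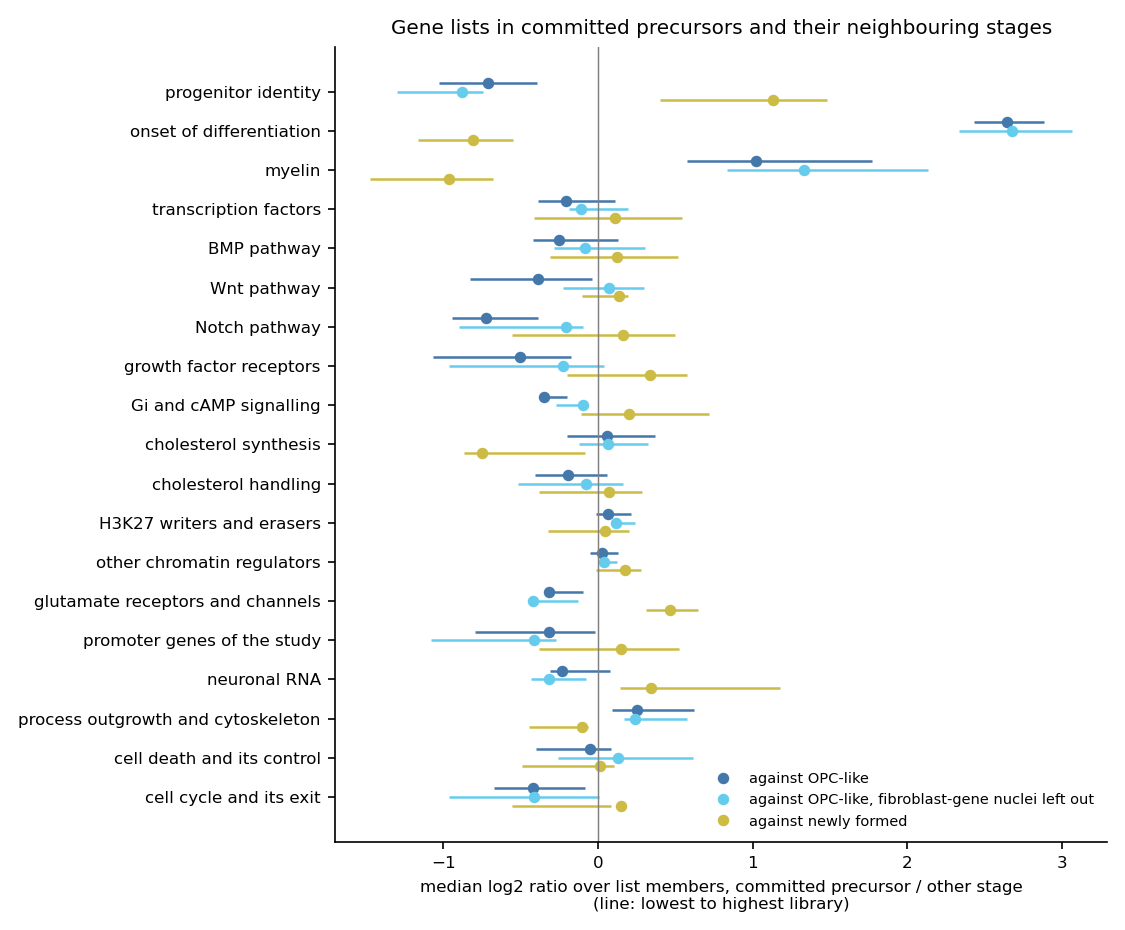
Median log2 ratio over the members of 19 gene lists (x axis) in committed precursors against OPC-like nuclei, against OPC-like nuclei without fibroblast-gene nuclei, and against newly formed nuclei, with lines from the lowest to the highest library. Onset of differentiation lies at 2.64 and -0.81 and progenitor identity at -0.71 and 1.13 against OPC-like and newly formed nuclei.

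To see how the precursors vary among themselves, they were ordered by Enpp6, which their rule did not use. There were 263 nuclei with 0 UMIs of Enpp6, 240 with 1 to 2 and 296 with 3 or more, with median depths of 3830, 3617.5 and 4722.5 UMIs. The 296 differ by rule from the newly formed class only in Gpr17, Bmp4 and Neu4. Depth also moves with this order. The library mix does too, with 45, 50, 64, 43, 33 and 28 nuclei of libraries 1 to 6 at 0 UMIs. At 3 or more UMIs there were 60, 68, 49, 29, 61 and 29, so the summed levels below also move with that mix. When the same precursors with at least 2000 UMIs were grouped by Enpp6 after thinning to 2000 UMIs (355, 301 and 109 nuclei), with levels still from all their UMIs, the median log2 ratios between the ends were -0.79 for progenitor identity, 1.38 for onset of differentiation, 1.07 for myelin and 0.30 for cholesterol synthesis genes. By the same call, 197 of 7879 genes were higher (2.5%) and 148 lower (1.88%) with 3 or more UMIs of Enpp6 than with none.

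Of 18 progenitor genes 8 were lower and none higher at 3 or more UMIs, with a median log2 ratio of -0.91 and a median under 0 in all 6 libraries. Tnr and Sox6 went the other way without being called, from 4472 through 6292 to 7296 CPM and from 1823 through 2138 to 2377 CPM. Cspg4 fell from 93.2 through 38.6 to 16.6 CPM over the 3 groups. Lhfpl3, a tetraspan protein of OPCs, fell from 2656 through 1530.0 to 1161 CPM and Ptprz1 from 1051 through 595 to 515 CPM. Etv5 fell from 67.9 through 34.8 to 15.9 CPM. The guidance ligand Ntn1 (netrin-1) fell from 117 through 38.6 to 25.7 CPM and Pstpip2 from 59.2 through 9.66 to 6.13 CPM.

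Of 15 genes of the onset of differentiation, 11 were higher and none lower at 3 or more UMIs, with a median of 1.55 and a median above 0 in all 6 libraries. Nfasc rose from 489 through 1406 to 2883 CPM, Cnksr3 from 42.7 through 133 to 352 CPM and Kif19a from 21.8 through 79.2 to 115 CPM. The transcription factors St18 and Tcf7l2 rose from 392 through 1204 to 1960.4 CPM and from 339.7 through 655 to 1139 CPM. Outside the lists, the FERM domain gene Frmd4a rose from 1655 through 5454 to 10737 CPM, Pik3r3, a regulatory subunit of PI3 kinase, from 314 through 905 to 2057 CPM, and Parvb, a focal adhesion protein, from 27.9 through 85.0 to 196 CPM. Of 12 myelin genes 4 were higher, with a median of 0.85, among them Mag, from 39.2 through 58.9 to 95.6 CPM, beside the 85.1 CPM of microglia-like nuclei. The ratio was above 1 for 8 of the 12, and Mobp, a structural protein of myelin, went from 147 through 127 to 82.1 CPM and was not called.

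**Figure D4:**
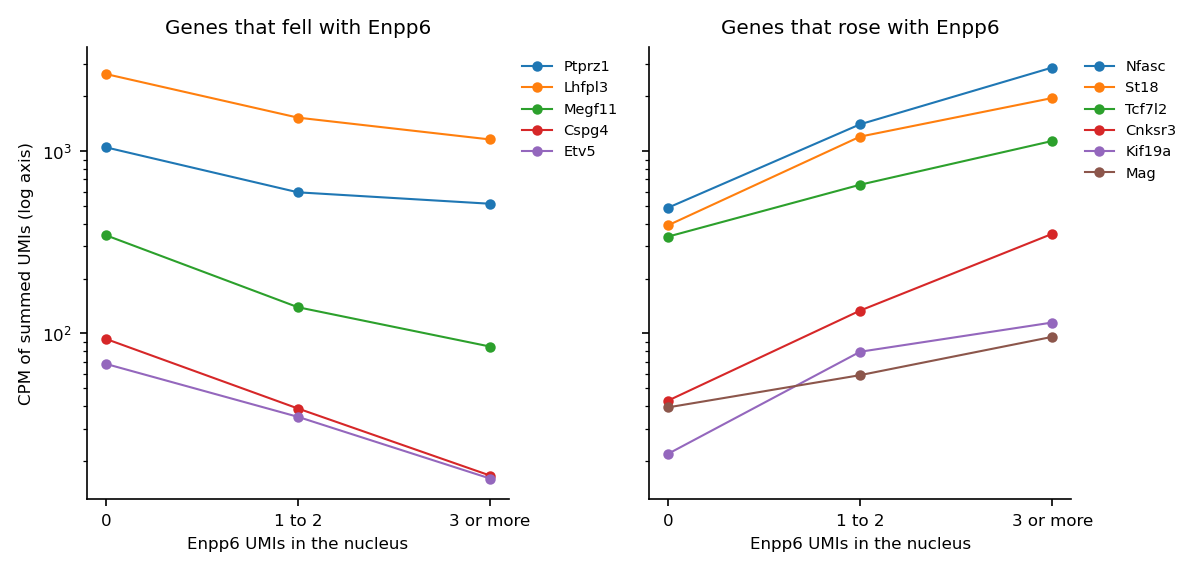
Level of genes (y axis, CPM, log scale) in committed precursors with 0, 1 to 2 and 3 or more UMIs of Enpp6 (x axis), all libraries summed. Genes that fell include Cspg4, from 93.2 to 16.6 CPM, and genes that rose include Nfasc, from 489 to 2883 CPM.

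Several genes that were higher in the precursors than in both neighbouring stages, with all libraries summed, were not called along this order. Arsb had 467, 558 and 441 CPM over the 3 groups, Sox8 125, 123 and 103 CPM and Nkx2-2 78.4, 107 and 97.5 CPM. Glis1 was lower, going from 85.4 through 80.2 to 38.6 CPM. Of the genes that chose the nuclei, Gpr17 had 185, 198 and 131 CPM, Neu4 334, 330.3 and 284 CPM, Bmp4 148, 252 and 259 CPM, Bcas1 1714, 3002 and 3766 CPM and Pdgfra 53.1, 10.6 and 6.74 CPM over the 3 groups, so that Bcas1 went up and Pdgfra down with Enpp6. The cholesterol synthesis genes had a median of -0.02 with 0 of 12 called, and the H3K27 writers and erasers 0.07 with 0 of 13. In the glutamate receptor and channel list 4 of 27 were lower and none higher, with a median of -0.40, and Cacng4 went from 435 through 213 to 145 CPM.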

How the data were processed

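Nuclei of 3 WT and 3 Npc1-/- forebrains were sequenced with a 10x Chromium 3′ protocol. The authors deposited 1 matrix of UMI counts, 32285 genes by 75878 barcodes of 16 bases and a library number, not normalized. Its file header names cellranger 6.0.0, the labels' processing notes name Cell Ranger 2.1.1 and mm10, and the methods of the study name STARsolo, EmptyDrops and DoubletFinder on GRCm38. The sources do not state which of these made the matrix or whether multiplets had been removed from it. No doublet caller was run. Barcodes have no key to a mouse, so each library stands on its own and the genotypes were not compared.

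Nuclei with a mitochondrial share under 10% were kept (11 removed). UMIs were summed per class and library and scaled to CPM from those deposited counts. Ratios have exact conditional binomial intervals and shares exact Clopper-Pearson intervals (95%), which cover counting error only. Genes with at least 50 UMIs over both classes were used. Genes were named as follows: the markers and rule genes, up to 15 genes called higher than both neighbours with the largest smaller fold, the 10 highest and 10 lowest calls against each neighbour (predicted genes counted but not named), and of each list 2 to 4 members by largest absolute log2 ratio plus members with a textbook role at this stage. Pstpip2 and Spry1, from the calls without fibroblast-gene nuclei, and Ntn1, Frmd4a, Pik3r3 and Parvb along the Enpp6 order were named after their values had been seen. The nuclei, the 19 gene lists and the classes were chosen with earlier results of these data known. The excitatory neuron-like (at least 5 UMIs of Slc17a7 and Slc17a6, at most 1 of Gad1 and Gad2) and microglia-like (at least 6 UMIs of microglial markers, at most 1 of the neuronal genes) reference classes and the fibroblast-gene step were added after seeing the data. Classes were taken from the same nuclei as the levels, so differences between them are descriptions. The calculations were tested on simulated counts. Gene positions are from GENCODE vM21 and promoter sequences from RefSeq, both GRCm38, and Gpr17 and Bcas1 had no promoter entry in the table used. Some genes of the lists are not reported here by name. Python 3.11.15, numpy 2.4.6, scipy 1.17.1, pandas 2.3.3 and, for TMM factors, R 4.3.3 with edgeR 4.0.16 were used. Alternatives were TMM scaling, equal weight per nucleus, other UMI minimums, stricter members, a depth window, thinning, leaving out nuclei with markers of other cell types and leaving out each library.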

Additional observations from a re-analysis of the deposited data

How the results depend on the processing

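No paired analysis was possible because the barcodes carry no key to a mouse, so that no library has a replicate number of a genotype. Stages were compared within each library, as each call needs all 6. The share of committed precursors was 0.652% after thinning, 0.550% with a stricter rule, 1.48% among nuclei of 2000 to 8000 UMIs, and 0.183% of all nuclei where members with markers of other cell types were not counted. Under TMM scaling 111 genes were higher than in newly formed nuclei, 9 than in both neighbours, and the H3K27 list had a median of 0.16 against OPC-like nuclei. With equal weight per nucleus 9 genes were higher than in both. Without a minimum of UMIs the myelin median against OPC-like nuclei was 0.50. A minimum of 200 UMIs left 295 genes lower than in OPC-like nuclei, 97 higher than in newly formed nuclei and 8 higher than in both. Leaving out nuclei with other markers kept 139 precursors, 109 OPC-like and 80 newly formed nuclei. There, 204 genes were higher and 76 lower than in OPC-like nuclei and 112 lower than in newly formed nuclei. The medians against OPC-like nuclei were then -1.23 for progenitor identity, -0.21 for cholesterol synthesis and 0.17 for H3K27, and those against newly formed nuclei -1.22 for onset and -1.43 for myelin. Reversed in sign were Wnt (0.33 and -0.42), Gm15222 (-0.095), Apod (0.39), Ccnd3 (0.17) and, against newly formed nuclei, Gucy2f (-0.0001). Gm15222 and Gucy2f were then near 0. For all of these fewer nuclei were left and the cause was not tested further. Without fibroblast-gene nuclei 302 genes were lower. Col4a6 (2.34), Aox3 (0.89), Egflam (0.49), Lef1 (0.0865) and Notch2 (0.0327) reversed in sign, the cause of which was not tested. Lef1 and Notch2 were then near 0, and Col4a6 and Aox3 had few UMIs in precursors. Leaving out each library gave shares of 1.02% to 1.08%, 356 to 385 higher and 560 to 624 lower genes against OPC-like nuclei, 170 to 273 and 198 to 296 against newly formed nuclei, and 14 to 33 above both, the highest being without library 4. The H3K27 median against newly formed nuclei ran from -0.03 to 0.12 in that step. Of the values of single genes and of the other lists over all alternatives, 3352 stayed, 385 moved and 11 reversed, where only called genes or medians past the spread of the libraries on both sides count as reversed and the 10 fibroblast genes, Bmp6 included, were left out of the step that used them. Depth limits the statements on cholesterol synthesis and Olig genes, which had few UMIs per nucleus.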

Other observations

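The libraries carry no group, and their values are given singly. Newly formed nuclei per 100 committed precursors were 63.0, 78.1, 31.6, 37.3, 78.8 and 23.5 in libraries 1 to 6, with the widest gap between 37.3 and 63.0. Mature nuclei per 100 precursors were 332, 330, 89.5, 102, 258 and 107, with the widest gap between 107 and 258. Precursors per 100 OPC-like nuclei were 81.1, 77.2, 69.1, 71.0, 78.7 and 64.9, where the OPC-like nuclei include the 230 with fibroblast genes.

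Some genes varied widely over the libraries within the committed precursors. In libraries 1 to 6, Gucy2f had 5.78, 7.09, 50.6, 42.1, 1.79 and 60.8 CPM in precursors, and in OPC-like nuclei it had 18.2 to 45.9 CPM. Cnksr3 had 198, 331, 71.4, 61.4, 358 and 143 CPM. Tcf7l1, a repressor of Wnt targets, had 207, 208, 83.1, 80.7, 192 and 137 CPM, against 63.3 to 113 CPM in OPC-like nuclei. Whether these differences belong to a genotype, a mouse or a library cannot be told apart here.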
